A study of Mus musculus with 8 samples.

Results

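Amino acids and the neurotransmitters derived from them enter and leave cells through solute carrier (Slc) proteins. The genes described here are those of 7 solute carrier families (Slc1, Slc3, Slc6, Slc7, Slc36, Slc38 and Slc43), chosen by symbol from the gene table of a PTH experiment in mouse osteoblasts. The rule matched 66 of the 47706 genes listed. 4 of these are genes named for lying on the opposite strand of a transporter (Slc36a1os, Slc36a3os, Slc6a19os and Slc7a6os), which leaves 62 transporter genes. RNA was sequenced from primary calvarial osteoblasts, the cells that form bone, taken here from the skulls of newborn mice, after differentiation for 7 days and treatment with PTH or vehicle for 24 hours, with 4 samples in each group. PTH is parathyroid hormone, a stimulus for bone formation when given intermittently. All 8 samples carry the prefix Con in their labels, which give no strain, genotype, dose or animal of origin, so p-values measure the spread between these samples, which may be technical. The cells were serum starved before treatment according to the study's methods, in both groups. The labels name adipogenic differentiation where the methods name osteogenic medium.

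Members of the Slc1 family carry glutamate, aspartate and neutral amino acids with sodium, and those of the Slc6 family carry neurotransmitters, taurine, creatine and neutral amino acids with sodium and chloride. Slc3 genes encode heavy chains, which bring the light chains encoded by part of the Slc7 family to the plasma membrane, where the pair exchanges amino acids across it. Several Slc36 members move small amino acids with protons. Slc38 members move glutamine, alanine and other neutral amino acids with sodium, and Slc43 holds carriers of large neutral amino acids and of purine nucleobases. In osteoblasts this supply is known to serve the synthesis of collagen, which is rich in glycine and proline.

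Total counts ranged from 33605610 to 56090654 per sample, and levels are given as CPM (counts relative to library size, adjusted by the TMM method of edgeR). Osteoblast marker genes had a median of 208 to 334 CPM under vehicle and 225 to 353 CPM under PTH, and adipocyte marker genes had a median of 4.51 to 6.33 CPM under vehicle and 3.89 to 5.49 CPM under PTH. Tnfsf11, which encodes the osteoclast factor RANKL and is a known target of PTH, had 1.42 ± 0.365 CPM under vehicle and 128 ± 20.0 CPM under PTH (SD, n = 4). In RNA from whole cultures, fewer cells of a type and less RNA per cell cannot be told apart.

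PTH raised 13 and lowered 11 of the 40 transporter genes that passed the filter on low counts, by edgeR's quasi-likelihood test at a Benjamini-Hochberg adjusted p under 0.05. Log2 fold changes of single genes are given with their standard error (SE). The genes with the largest increases were Slc38a3, Slc1a1 and Slc6a17, which are known for glutamine, glutamate and neutral amino acid transport in brain, and the largest decrease was that of Slc43a1, a carrier of branched-chain amino acids. The 24 called genes were 60.0% of those tested, and over all 16736 genes tested the share was 45.8%. Upregulated genes were 32.5% of the transporter genes and 23.2% of all genes, and downregulated genes were 27.5% and 22.6%. The median log2 fold change was 0.06 over the 40 transporter genes and 0.00 over all genes tested. Where a change of at least 1 on the log2 scale was required as well, 6 transporter genes were upregulated, against 7.3% of all genes, and 2 were downregulated, against 3.89% of all genes. In 13 of the 40 genes all PTH samples lay above all vehicle samples, in 10 they lay below, and in 17 the groups overlapped. Over all genes tested, PTH samples lay above in 21.2% and below in 21.8%. Since the filter also passes genes that are high in 1 group alone, these counts describe the 40 genes and not the families as a whole.

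**Figure D1:**
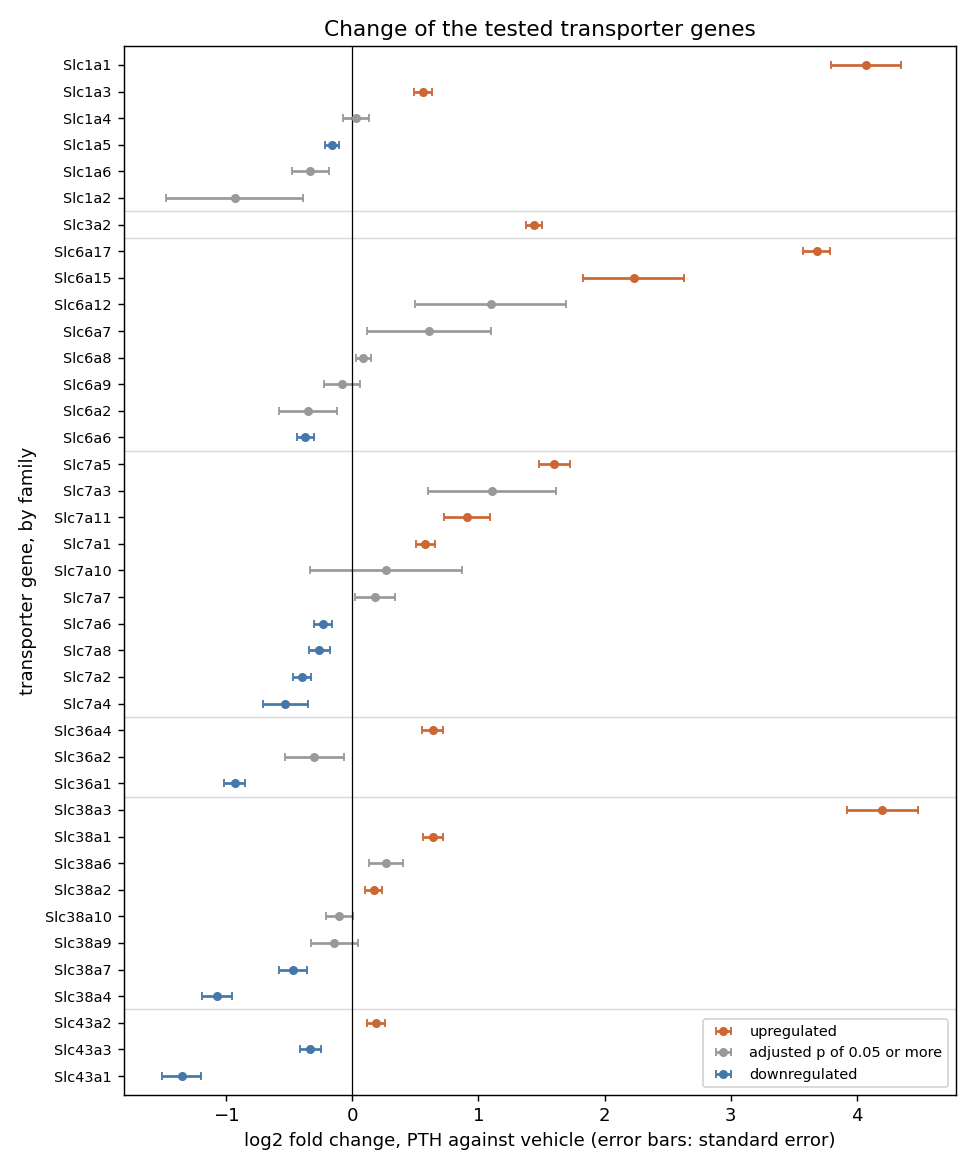
The horizontal axis gives the log2 fold change of PTH against vehicle for tested transporter genes, grouped by family, with the standard error as error bar. Points right of 0 are higher with PTH, and the log2 fold changes run from -1.35 for Slc43a1 to 4.2 for Slc38a3.

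The 13 upregulated genes had log2 fold changes of 0.17 to 4.2, with a median of 0.91, and 2 of them lay under 0.5. The 11 downregulated genes had log2 fold changes of -1.35 to -0.16, with a median of -0.40, and 7 of them changed by less than 0.5.

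The families were represented unequally. The Slc6 family had the most genes (20), of which 9 were tested, and the Slc7 family had 15, of which 10 were tested. Of 11 Slc38 genes 8 were tested, of 7 Slc1 genes 6, of 4 Slc36 genes 3, of 3 Slc43 genes 3 and of 2 Slc3 genes 1. Scaled to the length of the exons, the most abundant member with vehicle was Slc38a10, at 70.4 CPM per kilobase, followed by Slc6a6 at 47.7 CPM per kilobase and Slc38a2 at 27.9 CPM per kilobase. With PTH, Slc38a10 was still first by its mean of 65.7 CPM per kilobase and Slc3a2 had moved from the fourth to the second place. Slc7a5 moved from place 10 to place 5, Slc6a17 from 29 to 15 and Slc38a4 from 8 to 16. The summed level of the Slc7 family was 44.1 to 46.4 CPM per kilobase with vehicle and 54.1 to 70.2 CPM per kilobase with PTH. That of the Slc1 family was 34.1 to 37.9 CPM per kilobase with vehicle and 38.8 to 40.9 CPM per kilobase with PTH. The sum of the Slc6 family was lower with PTH, at 58.1 to 64.9 CPM per kilobase against 65.2 to 67.7 CPM per kilobase with vehicle, and so was that of the Slc43 family, at 9.51 to 10.2 against 10.6 to 11.7 CPM per kilobase. The sums of the Slc36 and Slc38 families overlapped between the groups. Single genes weigh on these sums, and members of a family moved in both directions. Within the Slc6 family, mean levels fell from 47.7 to 36.9 CPM per kilobase for Slc6a6 and rose from 0.431 to 5.5 for Slc6a17. Within the Slc7 family, they rose from 9.65 to 29.2 CPM per kilobase for Slc7a5 and fell from 13.8 to 10.4 for Slc7a2.

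**Figure D2:**
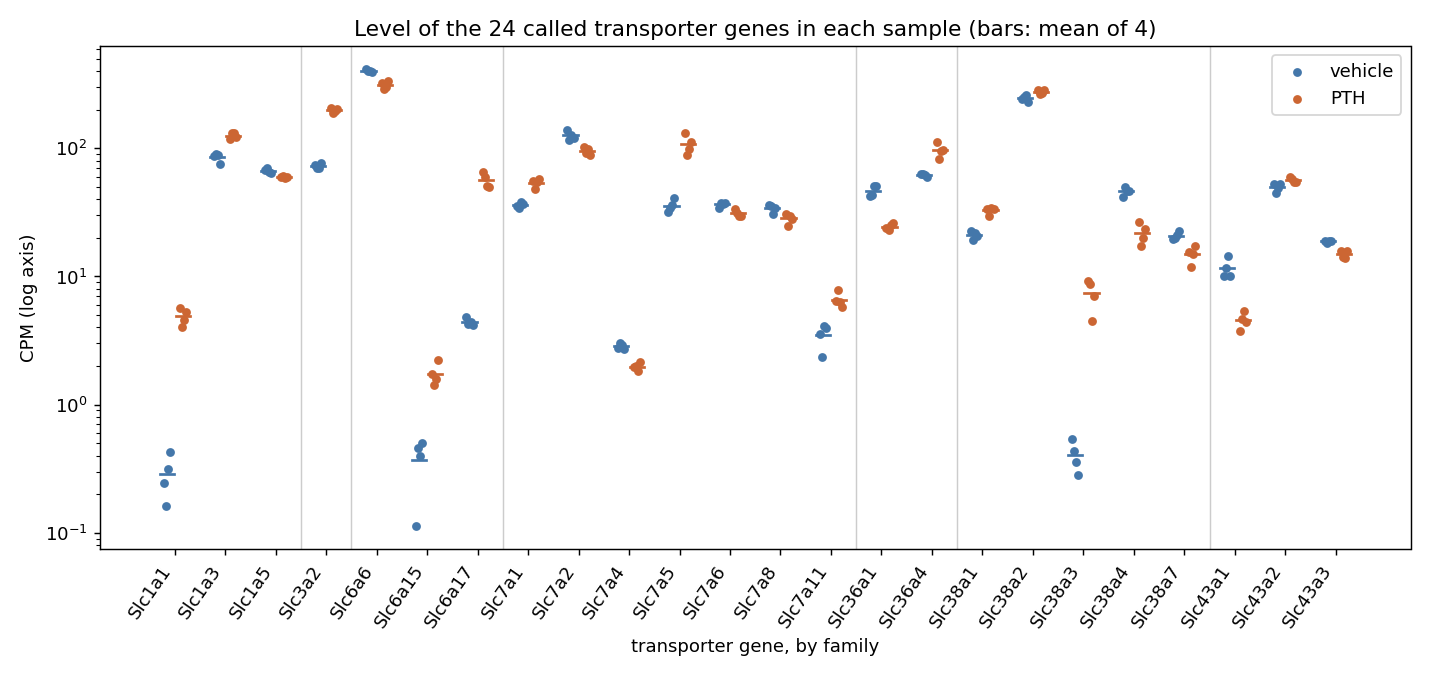
Each point is the CPM of 1 sample, on a log axis, for the 24 called transporter genes ordered by family, with a bar at the mean of the 4 samples of a group. Slc1a1, Slc6a15 and Slc38a3 lie below 1 CPM in all vehicle samples and above 1 CPM in all PTH samples, and the groups of Slc7a8 overlap.

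Promoters of the tested genes were searched for 4 motifs on both strands, from 250 bases before to 50 bases after each RefSeq transcription start in GRCm38.p6, where 25 of the 40 tested genes had an entry (9 upregulated, 6 downregulated and 10 not called). The motifs were the cAMP response element (CRE, TGACGTCA), its core TGACG, which overlaps it, the amino acid response element TGATGNAA bound by ATF4, and the E-box CACGTG bound by factors such as TFEB and MYC. PTH acts through a receptor that raises cAMP. The full CRE was found in none of the 15 called genes, in 1 of 10 genes not called (Slc38a6) and in 2.03% of all genes with a window. The core was found in 4 of 9 upregulated genes (Slc1a3, Slc38a2, Slc6a17 and Slc7a1), in 3 of 6 downregulated genes (Slc36a1, Slc38a4 and Slc7a6), in 5 of 10 genes not called and in 23.0% of all genes. The amino acid response element was found in 1 upregulated gene, Slc7a11, in no downregulated gene, in 2 of 10 genes not called (Slc1a4 and Slc7a7) and in 4.51% of all genes. The E-box was found in no upregulated gene, in 3 of 6 downregulated genes (Slc36a1, Slc38a7 and Slc43a1), in 1 of 10 genes not called (Slc1a6) and in 8.09% of all genes. The upregulated genes Slc7a5, Slc38a3, Slc38a1 and Slc6a15 had no entry and were not searched. The same holds for the downregulated genes Slc1a5, Slc43a3, Slc6a6, Slc7a2 and Slc7a4. Sequence outside the windows was not searched in any gene. A match is a description of letters and not of binding, which was not measured.

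The windows of 5 called genes are shown from 100 bases before to 50 bases after the start, 5′ to 3′ on the strand of the gene, with capitals for the motif each gene is shown for. The CRE core of Slc36a1, at -93, is in lower case. Slc7a11 is shown for its pair of amino acid response elements in opposite orientation, at -66 and -47 from the start (chr3:50443564-50443713, minus strand). Slc6a17 is shown as the most strongly called gene with CRE cores, at -50 and -20 (chr3:107517969-107518118, minus strand). Slc36a1 (chr11:55204240-55204389, plus strand), Slc38a7 (chr8:95853442-95853591, minus strand) and Slc43a1 (chr2:84840223-84840372, plus strand) are shown for their E-boxes, which lie at -31 and -3, at -34 and at -64.
Slc7a11: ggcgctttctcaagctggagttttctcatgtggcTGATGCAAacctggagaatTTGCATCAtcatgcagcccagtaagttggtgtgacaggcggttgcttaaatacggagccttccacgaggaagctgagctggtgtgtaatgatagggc
Slc6a17: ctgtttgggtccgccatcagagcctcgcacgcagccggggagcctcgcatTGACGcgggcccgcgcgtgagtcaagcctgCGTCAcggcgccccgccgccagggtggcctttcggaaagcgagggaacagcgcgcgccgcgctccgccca
Slc36a1: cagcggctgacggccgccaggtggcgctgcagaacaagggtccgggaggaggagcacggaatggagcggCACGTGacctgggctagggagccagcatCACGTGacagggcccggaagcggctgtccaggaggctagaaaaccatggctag
Slc38a7: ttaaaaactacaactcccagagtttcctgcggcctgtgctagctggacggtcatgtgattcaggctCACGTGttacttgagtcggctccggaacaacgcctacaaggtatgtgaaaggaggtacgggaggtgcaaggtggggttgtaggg
Slc43a1: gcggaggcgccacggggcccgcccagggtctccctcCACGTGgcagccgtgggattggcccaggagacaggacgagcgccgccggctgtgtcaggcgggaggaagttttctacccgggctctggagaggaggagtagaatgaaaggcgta

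Both chains of the exchanger of large neutral amino acids were raised. Slc3a2 encodes the heavy chain 4F2hc (CD98), located at chr19:8706882-8723369 (positions are those of GENCODE M21 on GRCm38). Its levels were 74, 70.4, 70.6 and 76.7 CPM in vehicle samples 1 to 4 and 205, 190, 194 and 204 CPM in PTH samples 1 to 4. The lowest PTH sample was far above the highest vehicle sample, and the log2 fold change was 1.44 ± 0.0614 (SE, adjusted p = 5.94e-10 by edgeR). Repeats of at most 182 bases in its exons are shared with 128 other genes. Slc7a5 encodes the light chain LAT1, which carries leucine and other large neutral amino acids, and lies at chr8:121881150-121907694. It had 31.7, 34.1, 36.2 and 41.1 CPM in the vehicle samples and 133, 88.2, 98.7 and 113 CPM in the PTH samples. All PTH samples were above all vehicle samples, with PTH sample 1 the highest, and the log2 fold change was 1.60 ± 0.123 (SE, adjusted p = 6.93e-07).

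Of the other light chains of Slc3a2, 1 rose and 2 fell. Slc7a11 (xCT) exchanges cystine for glutamate. It had 3.57, 2.36, 4.07 and 3.97 CPM under vehicle and 6.42, 7.85, 6.32 and 5.75 CPM under PTH, without overlap, and the log2 fold change was 0.91 ± 0.184 (SE, adjusted p = 0.00126). Part of its longest transcript, of up to 375 bases, is near-identical to tubulin genes, so its level is uncertain. The tubulin genes Tuba1a, Tuba1b and Tuba1c were not called, and Tuba1a had 905 ± 14.7 CPM under vehicle and 886 ± 66.8 CPM under PTH (SD, n = 4).

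Slc7a6 (y+LAT2) exchanges cationic for neutral amino acids. It had 34.3, 37.3, 36.9 and 37.6 CPM under vehicle and 33.4, 31.4, 29.8 and 29.8 CPM under PTH. The groups were close without overlapping, and the log2 fold change was -0.23 ± 0.0698 (SE, adjusted p = 0.0152). With an offset for transcript length its adjusted p was 0.0628. Slc7a8 encodes LAT2, a carrier of small and large neutral amino acids. It had 36.1, 35.2, 30.8 and 34.1 CPM under vehicle and 31, 24.8, 29.7 and 28 CPM under PTH. Its highest PTH sample lay above its lowest vehicle sample, and the log2 fold change was -0.26 ± 0.0851 (SE, adjusted p = 0.0222). This call was lost with the length offset (adjusted p = 0.0867) and without PTH sample 2 or 4 or vehicle sample 1, 2 or 4 (edgeR adjusted p of 0.05 to 0.0695).

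The remaining tested light chains did not pass the test. Slc7a7 (y+LAT1) had 9.39, 9.12, 7.47 and 7.94 CPM under vehicle and 12, 8.85, 6.97 and 10.4 CPM under PTH, with overlap. The log2 fold change was 0.18 ± 0.158 (SE, adjusted p = 0.387), and 232 of its exon bases overlap Oxa1l on the opposite strand. Slc7a10 (Asc-1), a carrier of glycine, alanine and D-serine known from neurons and adipocytes, was low throughout. It had 0.625, 0.115, 0.313 and 0.443 CPM under vehicle and 0.117, 0.451, 0.835 and 0.428 CPM under PTH (log2 fold change 0.27 ± 0.604, adjusted p = 0.746), and 377 of its exon bases overlap Lrp3 on the opposite strand, which had 48.1 ± 5.42 and 38.9 ± 3.96 CPM. The second heavy chain gene, Slc3a1, and the light chain genes Slc7a9 and Slc7a13 had at most 18, 7 and 18 counts in a sample and were not tested.

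Set per kilobase, the heavy chain stood higher relative to its light chains with PTH, which is given as a description. Slc3a2 had 20.6 ± 0.858 CPM per kilobase with vehicle and 56.2 ± 2.06 CPM per kilobase with PTH, and the sum of Slc7a5, Slc7a6, Slc7a7, Slc7a8, Slc7a10 and Slc7a11 had 27.4 ± 1.08 and 45.2 ± 6.27 CPM per kilobase (SD, n = 4). The ratio of heavy to light chain levels was 0.787, 0.728, 0.749 and 0.749 in the vehicle samples and 1.09, 1.38, 1.31 and 1.25 in the PTH samples. The 2 groups did not overlap. Slc7a5 made up 32.1% to 38.2% of the light chain sum with vehicle and 60.9% to 67.0% with PTH. The mean share of Slc7a6 was 29.1% with vehicle and 15.2% with PTH, and that of Slc7a8 was 24.8% and 12.6%. With the longest transcript in place of all exons, the mean share of Slc7a5 was 31.2% with vehicle and 59.9% with PTH. These are RNA levels, and the amount of each protein was not measured in these files.

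**Figure D3:**
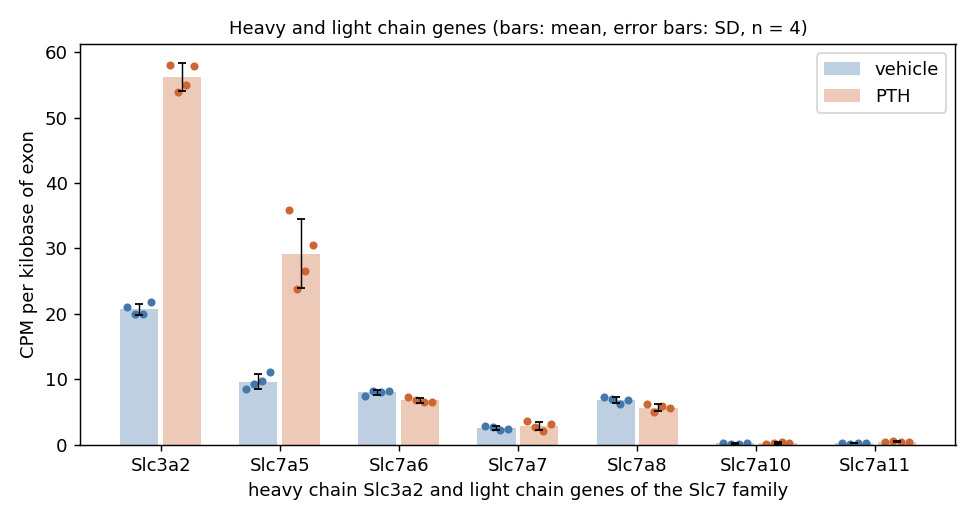
The vertical axis gives CPM per kilobase of exon for the heavy chain gene Slc3a2 and 6 light chain genes, with points for samples, bars for means and error bars for the SD of 4 samples. Slc3a2 and Slc7a5 stand higher with PTH in every sample, while the points of Slc7a7, Slc7a8 and Slc7a10 overlap between the groups.

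The cationic amino acid transporters of the Slc7 family moved in both directions. Slc7a1 (CAT1), the widely expressed importer of arginine and lysine, had 35.5, 34.1, 38.3 and 37.1 CPM under vehicle and 55.6, 47.9, 55 and 57.3 CPM under PTH. All PTH samples were higher, and the log2 fold change was 0.58 ± 0.0735 (SE, adjusted p = 3.07e-05). Slc7a2 (CAT2), a second arginine importer, had 139, 117, 128 and 121 CPM under vehicle and 102, 91.5, 98.8 and 89.4 CPM under PTH. All PTH samples were lower, and the log2 fold change was -0.40 ± 0.0713 (SE, adjusted p = 4.93e-04). Slc7a2 remained the more abundant of the pair per kilobase, at 13.8 CPM per kilobase against 3.14 CPM per kilobase for Slc7a1 with vehicle and at 10.4 against 4.68 CPM per kilobase with PTH. Slc7a4, a related protein whose substrate is not settled, had 2.77, 3.03, 2.94 and 2.7 CPM under vehicle and 1.97, 1.99, 1.83 and 2.14 CPM under PTH, and the log2 fold change was -0.53 ± 0.178 (SE, adjusted p = 0.0265). The groups were separate, and the call was lost without PTH sample 3 or vehicle sample 2 or 3 (edgeR adjusted p of 0.0579 to 0.0613). Exons of Slc7a4 share 554 bases with P2rx6 on the opposite strand, so its level is uncertain. P2rx6 was not called and had 6.76 ± 0.698 CPM under vehicle and 5.93 ± 1.63 CPM under PTH (SD, n = 4). Slc7a3 did not pass the test.

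In the Slc1 family, 2 glutamate transporters rose and the glutamine exchanger fell slightly. Slc1a1 (EAAC1) takes up glutamate, aspartate and cysteine and lies at chr19:28835049-28913960. It had 0.245, 0.161, 0.313 and 0.423 CPM under vehicle, which are 11, 7, 15 and 21 counts, and 5.66, 4, 4.57 and 5.3 CPM under PTH, which are 290, 133, 175 and 223 counts. Every PTH sample was far above every vehicle sample, with a log2 fold change of 4.07 ± 0.278 (SE, adjusted p = 6.92e-08). Its exons share 2631 bases with 4430402I18Rik on the opposite strand, and the sources used here do not say whether strand was used in counting. 4430402I18Rik had 0.868 ± 0.409 CPM under vehicle and 0.561 ± 0.053 CPM under PTH (SD, n = 4).

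Slc1a3 (GLAST) takes up glutamate in astrocytes and has been described in bone cells. It had 87.1, 90.7, 89.5 and 74.9 CPM under vehicle and 119, 131, 131 and 122 CPM under PTH, without overlap, and the log2 fold change was 0.56 ± 0.072 (SE, adjusted p = 3.44e-05). Slc1a5 (ASCT2) exchanges glutamine and small neutral amino acids and was the most abundant Slc1 gene per kilobase with vehicle. It had 68.1, 70.1, 65.2 and 64.1 CPM under vehicle and 59.3, 60.7, 58.9 and 60 CPM under PTH, and the log2 fold change was -0.16 ± 0.0574 (SE, adjusted p = 0.033). The groups were separate by a small margin, and the call was lost with the length offset (adjusted p = 0.187) and without PTH sample 3 or 4 or vehicle sample 1 or 2 (edgeR adjusted p of 0.0627 to 0.0989). The other tested members, Slc1a2, Slc1a4 and Slc1a6, had log2 fold changes of -0.93 to 0.03 and did not pass the test, although Slc1a6 was called without PTH sample 1 (log2 fold change -0.44, adjusted p = 0.027).

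In the Slc6 family, both raised genes encode transporters of neutral amino acids known from neurons, and the taurine transporter was lowered. Slc6a17 (NTT4), found on synaptic vesicles, lies at chr3:107467543-107518018. It had 4.86, 4.27, 4.42 and 4.15 CPM under vehicle and 65.6, 60.1, 51 and 49.5 CPM under PTH. The PTH samples were all far above the vehicle samples, at a log2 fold change of 3.68 ± 0.110 (SE, adjusted p = 1.89e-11), the smallest adjusted p among the transporter genes. Slc6a15 (B0AT2) carries branched-chain amino acids and proline. It had 0.112, 0.459, 0.396 and 0.504 CPM under vehicle and 1.74, 1.41, 1.59 and 2.23 CPM under PTH, and the log2 fold change was 2.23 ± 0.400 (SE, adjusted p = 5.09e-04). Slc6a6 (TauT), which takes up taurine, was the most abundant Slc6 gene. It had 415, 402, 404 and 394 CPM under vehicle and 322, 291, 300 and 334 CPM under PTH, without overlap, and the log2 fold change was -0.37 ± 0.069 (SE, adjusted p = 6.60e-04).

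The other tested Slc6 genes were not called, among them the creatine transporter gene Slc6a8 (81.7 ± 0.649 CPM under vehicle and 86.9 ± 5.63 CPM under PTH), the glycine transporter gene Slc6a9 and the noradrenaline transporter gene Slc6a2. The betaine transporter gene Slc6a12 and the proline transporter gene Slc6a7 lay below 1 CPM on average in both groups. The dopamine transporter gene Slc6a3 and the glycine transporter gene Slc6a5 had no count in any vehicle sample, and had 3, 0, 6 and 6 counts and 6, 2, 14 and 8 counts in the PTH samples. Both were under the filter and were not tested.

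Neuron and glia markers were examined beside these genes. The summed level of 6 neuron markers was 46.8 to 53.2 CPM under vehicle and 60.4 to 67.1 CPM under PTH, and 1 of the 5 tested, Tubb3, was upregulated, from 9.73 ± 1.75 to 27.4 ± 4.93 CPM. Map2 had 26.9 ± 1.43 and 26.4 ± 3.09 CPM, and Stmn2 had 11.8 ± 1.19 and 9.83 ± 0.902 CPM, so the higher sum came from Tubb3. Snap25 had 0.393 ± 0.248 and 0.526 ± 0.252 CPM, and Syt1 had 0.304 ± 0.112 and 0.446 ± 0.154 CPM (SD, n = 4). Map2, Stmn2, Snap25 and Syt1 were not called, and Rbfox3 was at or near 0. The summed level of 6 glia markers was 17.8 to 21.0 CPM under vehicle and 16.2 to 22.2 CPM under PTH, with none of 4 tested called. The sums of 10 macrophage markers were 1040 to 1690 CPM and 1630 to 2110 CPM, with 3 upregulated (Lyz2, Cd14 and Tyrobp). Those of 5 chondrocyte markers were 317 to 332 CPM and 370 to 487 CPM, with 2 upregulated (Col2a1 and Acan). Lyz2 made up most of the macrophage sum (914 ± 187 and 1420 ± 203 CPM). Col2a1 made up most of the chondrocyte sum (226 ± 3.49 and 307 ± 40.1 CPM). The other markers of these 2 lists were not called. Of 10 osteoblast markers, 3 were downregulated (Runx2, Sp7 and Dmp1) and none upregulated. Of 5 tested adipocyte markers, 1 was downregulated (Pparg) and none upregulated. Over all genes tested, 23.2% were upregulated and 22.6% downregulated. The part of these cells in the changes of the transporter genes was not tested.

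The Slc38 family, the sodium-coupled carriers of glutamine and alanine, held the most abundant transporter gene and the largest increase. Slc38a3 (SNAT3), a glutamine carrier of liver, kidney and astrocytes, lies at chr9:107650634-107669530. It had 0.535, 0.436, 0.355 and 0.282 CPM under vehicle, which are 24, 19, 17 and 14 counts, and 9.17, 8.79, 4.49 and 7.08 CPM under PTH, which are 470, 292, 172 and 298 counts. PTH sample 3 was the lowest of its group and still far above all vehicle samples, and the log2 fold change was 4.20 ± 0.281 (SE, adjusted p = 5.64e-08). Slc38a10, the most abundant transporter gene, had 457, 454, 462 and 435 CPM under vehicle and 508, 344, 389 and 446 CPM under PTH. The PTH samples lay on both sides of the vehicle samples, and the log2 fold change of -0.10 did not pass the test (adjusted p = 0.466).

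Slc38a1, Slc38a2 and Slc38a4 lie within a stretch of mouse chromosome 15 and changed in both directions. Slc38a1 (SNAT1) and Slc38a2 (SNAT2) are general glutamine and alanine importers 44.5 kilobases apart. Slc38a1 had 22.8, 19.4, 21.8 and 20.6 CPM under vehicle and 33.5, 29.8, 34.4 and 33.8 CPM under PTH, and the log2 fold change was 0.64 ± 0.0802 (SE, adjusted p = 2.68e-05). Slc38a2 had 241, 254, 260 and 231 CPM under vehicle and 284, 268, 271 and 288 CPM under PTH, and the log2 fold change was 0.17 ± 0.0662 (SE, adjusted p = 0.0483). Neither gene's groups overlapped, but the call of Slc38a2 was lost on leaving out any 1 sample other than PTH sample 2 (edgeR adjusted p of 0.0595 to 0.174), with no filter on low counts (0.189) and with DESeq2's size factors (0.0509). Slc38a4 (SNAT4), an imprinted gene 295.1 kilobases farther on, had 41.7, 50.1, 46.2 and 46.8 CPM under vehicle and 26.8, 17.3, 20 and 23.3 CPM under PTH. All PTH samples were lower, and its log2 fold change was -1.07 ± 0.118 (SE, adjusted p = 8.78e-06). Slc38a7 (SNAT7), which exports glutamine from lysosomes, had 19.7, 20, 20.9 and 22.5 CPM under vehicle and 15.6, 11.9, 15 and 17.4 CPM under PTH, and the log2 fold change was -0.47 ± 0.110 (SE, adjusted p = 0.00355). Slc38a6 and the lysosomal arginine sensor gene Slc38a9 were not called, except without PTH sample 1 for Slc38a6 (log2 fold change 0.38, adjusted p = 0.0167) and without PTH sample 2 for Slc38a9 (-0.36, adjusted p = 0.0478). Stretches of up to 3260 bases of the longest Slc38a6 transcript are near-identical to parts of 38 other genes, so its level is uncertain.

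In the Slc36 family 1 gene rose and 1 fell. Slc36a4 (PAT4) had 63.2, 63.6, 62.2 and 59.8 CPM under vehicle and 112, 82.1, 95.1 and 96.9 CPM under PTH, and the log2 fold change was 0.64 ± 0.0834 (SE, adjusted p = 3.90e-05). Slc36a1 (PAT1), known for its place on lysosomes and its link to mTORC1, had 42.7, 43.3, 50.6 and 50.5 CPM under vehicle and 24.1, 23, 25 and 26.1 CPM under PTH, and the log2 fold change was -0.93 ± 0.0812 (SE, adjusted p = 8.09e-07). The groups of both genes were separate. Slc36a2 (PAT2) varied among the vehicle samples, at 11.4, 11.4, 16.3 and 25.3 CPM, and had 13.6, 13.1, 11.7 and 13.8 CPM under PTH. It did not pass the test (log2 fold change -0.30 ± 0.234, adjusted p = 0.325), and its log2 fold change was 0.00 without vehicle sample 4, the highest.

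All 3 genes of the Slc43 family were called, and over all genes tested the share called was 45.8%. Slc43a1 (LAT3), a facilitative carrier of branched-chain amino acids and phenylalanine, lies at chr2:84838850-84863594. It had 10.1, 11.6, 14.5 and 10 CPM under vehicle and 3.73, 4.66, 5.38 and 4.4 CPM under PTH, and the log2 fold change was -1.35 ± 0.155 (SE, adjusted p = 1.17e-05). Slc43a3, a nucleobase carrier 73 kilobases away, had 18.8, 18.3, 18.9 and 19 CPM under vehicle and 15.9, 14.1, 13.9 and 15.8 CPM under PTH, and the log2 fold change was -0.33 ± 0.0839 (SE, adjusted p = 0.00598). Slc43a2 (LAT4), a relative of Slc43a1 with similar substrates, had 52.3, 44.9, 49.1 and 52.8 CPM under vehicle and 60.1, 58, 54.8 and 54.8 CPM under PTH, and the log2 fold change was 0.19 ± 0.0697 (SE, adjusted p = 0.0365). The groups were separate in each of the 3 genes, and the call of Slc43a2 was lost with DESeq2 (adjusted p = 0.0616), with no filter on low counts (0.15) and without any 1 of the PTH samples or vehicle sample 2 or 3 (edgeR adjusted p of 0.0509 to 0.164). Large neutral amino acid carriers included raised (Slc7a5, Slc43a2) and lowered (Slc43a1, Slc7a8) genes.

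No count was found in any sample for Slc36a3, Slc38a5, Slc38a11, Slc6a18, Slc6a20a, Slc7a12 and Slc7a15, or for the opposite-strand genes Slc36a1os, Slc36a3os and Slc6a19os. Another 15 transporter genes had counts, of at most 18 in a sample, and did not pass the filter. Slc7a6os, which lies next to Slc7a6 and encodes a protein of its own, was tested and not called (log2 fold change 0.11, adjusted p = 0.384). Besides the genes already named, exons of Slc43a2, Slc7a2, Slc38a10 and Slc6a6 overlap genes on the opposite strand, by 922, 635, 367 and 117 bases. The same holds for Slc6a9, Slc1a2 and Slc38a9 among the tested genes, of which Slc6a9 shares 1429 bases with Ccdc24, and their levels share that uncertainty.

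A list of other carriers outside the 7 families, which also holds carriers of peptides, carnitine and monoamines, had 24 tested genes. Of these, 3 were upregulated and 6 downregulated, against 23.2% and 22.6% of all genes tested, with a median log2 fold change of -0.01. None of the called genes reached 1 on the log2 scale in either direction, against 7.3% upregulated and 3.89% downregulated of all genes tested. The increases were those of Slc15a3, a lysosomal peptide and histidine carrier (8.22 ± 1.64 CPM under vehicle and 14.9 ± 4.32 CPM under PTH, adjusted p = 0.00577), Slc22a5, the carnitine transporter (14.4 ± 1.29 and 24.8 ± 1.19 CPM, adjusted p = 9.82e-06), and Slc25a22, a mitochondrial glutamate carrier (21.9 ± 0.602 and 26.5 ± 2.3 CPM, adjusted p = 0.0125). The deepest decreases were in Slc25a13, the mitochondrial aspartate and glutamate carrier citrin (9 ± 1.66 and 4.89 ± 1.08 CPM, adjusted p = 0.00134), Slc25a15, the ornithine carrier (16.4 ± 0.549 and 10.4 ± 1.01 CPM, adjusted p = 1.01e-04), and Ctns, the lysosomal cystine exporter (21.4 ± 1.97 and 14.6 ± 1.99 CPM, adjusted p = 0.0012). All errors are SD with n = 4.

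Of 65 tested genes for amino acid metabolism and sensing, 17 were upregulated and 16 downregulated, against 23.2% and 22.6% of all genes tested. Their median log2 fold change was -0.11. Among the called genes, 9 increases and 1 decrease reached 1 on the log2 scale, against 7.3% and 3.89% of all genes tested. Gls2, which converts glutamine to glutamate, had 0.714, 1.06, 0.668 and 0.544 CPM under vehicle and 17.1, 18, 17.3 and 17.6 CPM under PTH (log2 fold change 4.56, adjusted p = 1.45e-10). Got1, the cytosolic aspartate aminotransferase, had 17.4 ± 0.428 CPM under vehicle and 119 ± 16.6 CPM under PTH (log2 fold change 2.78, adjusted p = 6.29e-11). Ddit4, an inhibitor of mTORC1, had 34.5 ± 3.08 and 173 ± 10.9 CPM (log2 fold change 2.33, adjusted p = 5.70e-11). The deepest decreases were in Sesn1, Shmt1 and Gatsl2. Sesn1, a leucine-sensing inhibitor of mTORC1, had 71 ± 1.66 and 31.8 ± 3.61 CPM (log2 fold change -1.16, adjusted p = 9.30e-08). Shmt1, which interconverts serine and glycine, had 3.79 ± 0.427 and 2.04 ± 0.926 CPM (log2 fold change -0.88, adjusted p = 0.0266). Gatsl2, a relative of an arginine sensor, had 39.6 ± 1.66 and 23.8 ± 1.26 CPM (log2 fold change -0.74, adjusted p = 2.11e-06). All errors are SD with n = 4.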

How the data were processed

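From poly(A)-enriched libraries, the authors aligned reads to GRCm38 (mm10) with HISAT2, assembled transcripts with StringTie and deposited a table of whole-number counts per gene and sample, estimated from transcript coverage and not normalized. Strand setting and annotation version are not given in the sources used here. Each column bears the name of 1 sample. Total counts were 33605610 to 56090654, which limits genes with few counts. 2 entries without a symbol were not used. Where a symbol had several entries, the most abundant was taken.

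The treatments were compared by edgeR 4.0.16 in R 4.3.3 (TMM, filterByExpr with a minimum count of 10 and total of 15, robust two-sided quasi-likelihood F-test), and adjusted p-values cover all 16736 genes tested. A standard error is the log2 fold change divided by the root of F. Members and lists were chosen with earlier results of these data known. Values are given for the 3 called genes with the largest increase and the 3 with the largest decrease in each family and other list, the most abundant member of a family and the tested heavy and light chains, and single members beyond this rule were named after their values were seen. 1 tested gene is included in the counts and not reported here by name. Exon lengths and positions come from GENCODE M21, promoters from RefSeq (GRCm38.p6), and similar sequence (at least 150 bases at 95% identity) from blastn 2.17.0. Python 3.11.15, pandas 2.3.3 and matplotlib 3.10.9 were used.

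Alternatives were DESeq2 1.42.0, its size factors in edgeR, no filter, a mean of at least 1 CPM, the sample number as a block, summed counts per symbol, a log2 fold change of at least 1, a transcript length offset, longest transcripts for levels and leaving out each sample. On simulated counts of this comparison with 16736 genes, edgeR recovered 28 of 66 changes of 0.5, 50 of 67 of 1 and 61 of 67 of 2 on the log2 scale, with 10 false calls. These were the only changes set, whereas 45.8% of the 16736 genes tested were called in the data. Recovery at that larger share of changes was not tested.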

Additional observations from a re-analysis of the deposited data

Results flagged for a closer look

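In 2 of 80 groups of 4 samples examined (40 tested transporter genes with PTH and with vehicle), 1 sample stood apart from the other 3 by Dixon's criterion, which chance gives in about 1 in 20 groups. Slc6a7, the proline transporter gene, had 0.271 CPM in vehicle replicate 3, the lowest of its group, against 0.504 to 0.551 CPM in the others. Slc6a9, the glycine transporter gene, had 7.75 CPM in PTH replicate 4, the highest of its group, against 6.94 to 7.02 CPM in the others. Neither gene was called.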

How the results depend on the processing

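Of the 24 called transporter genes, 18 kept their call in all 15 alternatives applied to single genes and none changed direction. The exceptions, each lost in some, were Slc38a2 (10), Slc43a2 (9), Slc1a5 (6), Slc7a8 (6), Slc7a4 (4) and Slc7a6 (1). Of 16 genes not called, 5 gained a call in some. Numbers of upregulated and downregulated transporter genes were 13 and 11 with DESeq2, 14 and 8 with the length offset, and 11 to 12 and 8 to 13 with 1 sample left out. A minimum log2 fold change of 1 left 6 and 2 transporter genes, 1222 and 651 of all genes, 0 and 0 other carriers, and 9 and 1 genes of metabolism and sensing. Other carriers had 6 upregulated genes with DESeq2, 6 with no filter and 5 with the length offset, and 3 to 5 with 1 sample left out, 5 without vehicle replicate 3 or vehicle replicate 4.

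Whether samples of the same number were paired is not known here. Their deviations correlated at -0.0409 to 0.0274, which does not settle it, since samples of different number were not compared. With the replicate block, 11 transporter genes were upregulated and 9 downregulated, and 3566 and 3455 of all genes. Slc38a2 (adjusted p = 0.123), Slc1a5 (0.0785), Slc43a2 (0.0667) and Slc7a4 (0.0637) were not called with it. Directions turned in 3 uncalled genes. Slc1a4 had -0.01 with no filter and -0.07 to 0.09 with 1 sample left out. Slc36a2 had 0.00 without vehicle replicate 4 (range -0.45 to 0.00), and Slc7a10 had -0.21 without PTH replicate 3 and -0.03 without vehicle replicate 2 (range -0.21 to 0.62). The cause was not tested. Depth limits the 15 transporter genes with at most 18 counts in a sample, which were not tested.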
